A study of Mus musculus with 6 samples.

Results

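The interferon-stimulated genes described here were 47 named genes of the interferon system, comprising nucleic acid sensors, interferon receptors, signalling proteins and induced effectors. They were taken by symbol from a list, with no threshold on measured values, although the list was drawn up with earlier results of these data known. All 47 were found among the 26898 genes of the deposited expression table. Expression was measured by RNA sequencing as TPM (a transcript level scaled for transcript length and for the sample total) in primary mouse embryonic fibroblasts (MEFs) at passage 3 from C57BL/6 embryos. The WT group (Kansl1fl/fl, n = 3) carried floxed Kansl1 alleles without Cre. The KO group (Kansl1fl/fl/CAG-cre, n = 3) carried the same alleles with a Cre recombinase that is driven by the ubiquitous CAG promoter and is active only with tamoxifen. Both groups received tamoxifen (1 μM, 48 h) and were grown with 10% fetal bovine serum per the labels, whereas the methods give another share. Mice are given as the replicates of each group, and whether the embryos came from separate litters is not given in the sources used here. Samples are named by their labelled numbers (WT 4, WT 5 and WT 8, and KO 3, KO 7 and KO 10). Tamoxifen-treated cells with Cre and intact Kansl1 were not analysed here, so loss of Kansl1 and the presence of active Cre cannot be told apart.

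Cells detect foreign or misplaced nucleic acid with sensor proteins such as RIG-I and MDA5 for RNA and the cGAS-STING pair for DNA. The adaptors of these sensors switch on interferon genes. Secreted interferon binds its receptors and activates JAK kinases and STAT transcription factors, and IRF9 with STAT2 then acts at the interferon-stimulated response element (ISRE) in the promoters of the genes it induces. Many of these genes are also expressed at a low level without infection, in fibroblasts among other cells, and this tonic expression depends on small amounts of type I interferon.

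The promoters of the induced genes are shown first, since the ISRE is the element that many members have in common. RefSeq promoter sequences (build GRCm38.p6, from 250 bases before to 50 bases after the annotated start) were matched for 38 of the 47 genes. The ISRE core was searched on both strands as GAAA followed by NN (any bases) and GAAA again, and overlapping matches were counted. It was present in 14 of the 38 promoters (36.8%), against 1079 of 27025 genes with a promoter (3.99%). The interferon gamma-activated site, searched as TTCNNNGAA, was present in 10 of the 38 (26.3%), against 2582 of 27025 (9.55%). Windows of the same length from 6 members are given below to show how differently the core is arranged, 5′ to 3′ on the gene's strand, with every ISRE core in capitals. Isg15, Ifit1, Ifit3, Oas1a and Bst2 are interferon-induced genes whose levels in WT 4 are described further on, and B2m is a highly expressed gene with a core of its own.
Isg15, chr4:156200856-156200915 (minus strand): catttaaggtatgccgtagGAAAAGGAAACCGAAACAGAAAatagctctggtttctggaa
Ifit1, chr19:34640769-34640828 (plus strand): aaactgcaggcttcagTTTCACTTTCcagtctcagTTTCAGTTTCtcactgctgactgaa
Ifit3, chr19:34583365-34583424 (plus strand): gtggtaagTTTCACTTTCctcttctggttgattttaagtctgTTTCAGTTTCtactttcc
Oas1a, chr5:120907526-120907585 (minus strand): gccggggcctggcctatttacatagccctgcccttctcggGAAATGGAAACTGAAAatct
Bst2, chr8:71537565-71537624 (minus strand): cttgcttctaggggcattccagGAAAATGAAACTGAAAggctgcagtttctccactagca
B2m, chr2:122147523-122147582 (plus strand): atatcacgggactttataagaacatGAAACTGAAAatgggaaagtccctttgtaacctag
The Isg15 window held 3 overlapping cores. The windows of Oas1a and Bst2 each held 2 overlapping cores, those of Ifit1 and Ifit3 each held 2 separate cores, and that of B2m held 1. A match describes the letters in the window and does not show that a factor was bound in these cells.

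As a check of the labels, Kansl1, the gene floxed in both groups, stood at 28.5, 26.7 and 24.4 TPM in the WT samples and at 13.7, 15.8 and 14.4 TPM in the KO samples. It was lower in the KO group by 0.82 on the log2 scale (SE 0.11, limma adjusted p = 0.000859), and the KO mean was 55.1% of the WT mean. TPM covers the whole transcript, including exons that may not be deleted. Reads per gene recovered from the TPM values summed to between 22809560 and 24259408 per WT sample and between 17654338 (KO 3) and 27716119 (KO 7) per KO sample. KO 7 differed from the other samples in sex-linked genes. Xist, the X-inactivation RNA, was at 117 TPM in KO 7 and at most 0.02 TPM in the others, and the Y-linked Ddx3y was at 0 TPM in KO 7 and at 49.6 to 63.2 TPM in the other 5 samples. The 12 fibroblast markers summed to 10619 to 15591 TPM in WT and 11497 to 15127 TPM in KO. None of them passed the test in limma, which 9.03% of all tested genes passed as lower and 1.64% as higher. An unadjusted p under 0.05 was found for 2 of the markers (16.7%, against 39.4% of all tested genes).

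In the KO group, 3 of the interferon-system genes fell and 1 rose. Tmem173, Ifi27 and H2-D1 fell to between 30.9% and 42.6% of the WT mean, and Tap1 rose to 182% of it. A gene was called at an adjusted p under 0.005 and a log2 fold change beyond 0.5, the thresholds of the study, by limma on log2(TPM + 1), and a fold change on this scale understates the change of genes at low TPM. Of the 47 genes, 37 passed the filter of a mean of 1 TPM in either group. The filter was passed in both groups by 32 genes, through the WT group alone by Irf7, Usp18, Oas1a and Tap2, and through the KO group alone by Oasl1. The remaining 10 genes, Dhx58, Ifi44, Mx1, Mx2, Oas2, Oasl2, Rsad2, Cmpk2, Xaf1 and Gbp3, were below it and were not tested. Lower calls were made for 8.11% of the 37 tested genes, against 9.03% of all 14799 tested genes. Higher calls were made for 2.70%, against 1.64%. These shares rest on 3 genes and 1 gene and were close to those of all genes.

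At a looser adjusted p under 0.05, with the same limit on fold change, 12 of the 37 genes were lower (32.4%) against 16.6% of all tested genes, and 1 was higher against 4.69%. The 12 genes were Tmem173, H2-D1, Ifi27, Ddx58, Ifih1, Mavs, Irf9, Usp18, Oas1a, Bst2, Tap2 and H2-K1. Since Usp18, Oas1a and Tap2 had passed the filter only through the WT group, the count was also made among the 32 genes at 1 TPM or more in both groups, of which 9 were lower (28.1%), against 16.1% of 13331 such genes. All KO samples lay below all WT samples for 16 of the 37 genes, or 43.2%, against 29.9% of all tested genes. All KO samples lay above for 2 genes, Ifngr2 and Tap1, or 5.41% against 13.3%. The median log2 fold change of the 37 genes was -0.41, against -0.07 for all tested genes. Of the 37 genes, 27 were negative (73.0%, against 57.4% of all tested genes). Among the 32 genes at 1 TPM or more in both groups, 13 had all KO samples below all WT samples (40.6%, against 29.5% of such genes). For 2 of the 32 all KO samples lay above (6.25%, against 12.6%). Their median was -0.36, against -0.07, and 23 were negative (71.9%, against 57.7%). Reads come from a mixture of cells, so fewer cells of a type and less RNA per cell cannot be told apart. Median-of-ratios scaling shifted the median over all genes upwards by 0.09 on the log2 scale, and the count at 0.05 fell from 12 to 6 of 37 (16.2%, against 13.7% of all genes). Ddx58, Mavs, Ifih1 and Irf9 then kept an adjusted p below 0.05 with log2 fold changes of -0.45, -0.41, -0.46 and -0.42, inside the limit of 0.5, while H2-K1 and Usp18 had adjusted p values of 0.0707 and 0.0600. The count was 15 of 40 tested without WT 4 (37.5%, against 15.0% of all genes), 6 of 37 without WT 5 (16.2%, against 13.8%), 7 of 37 without KO 3 (18.9%, against 13.1%) and 9 of 38 without KO 7 (23.7%, against 17.9%).

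**Figure D1:**
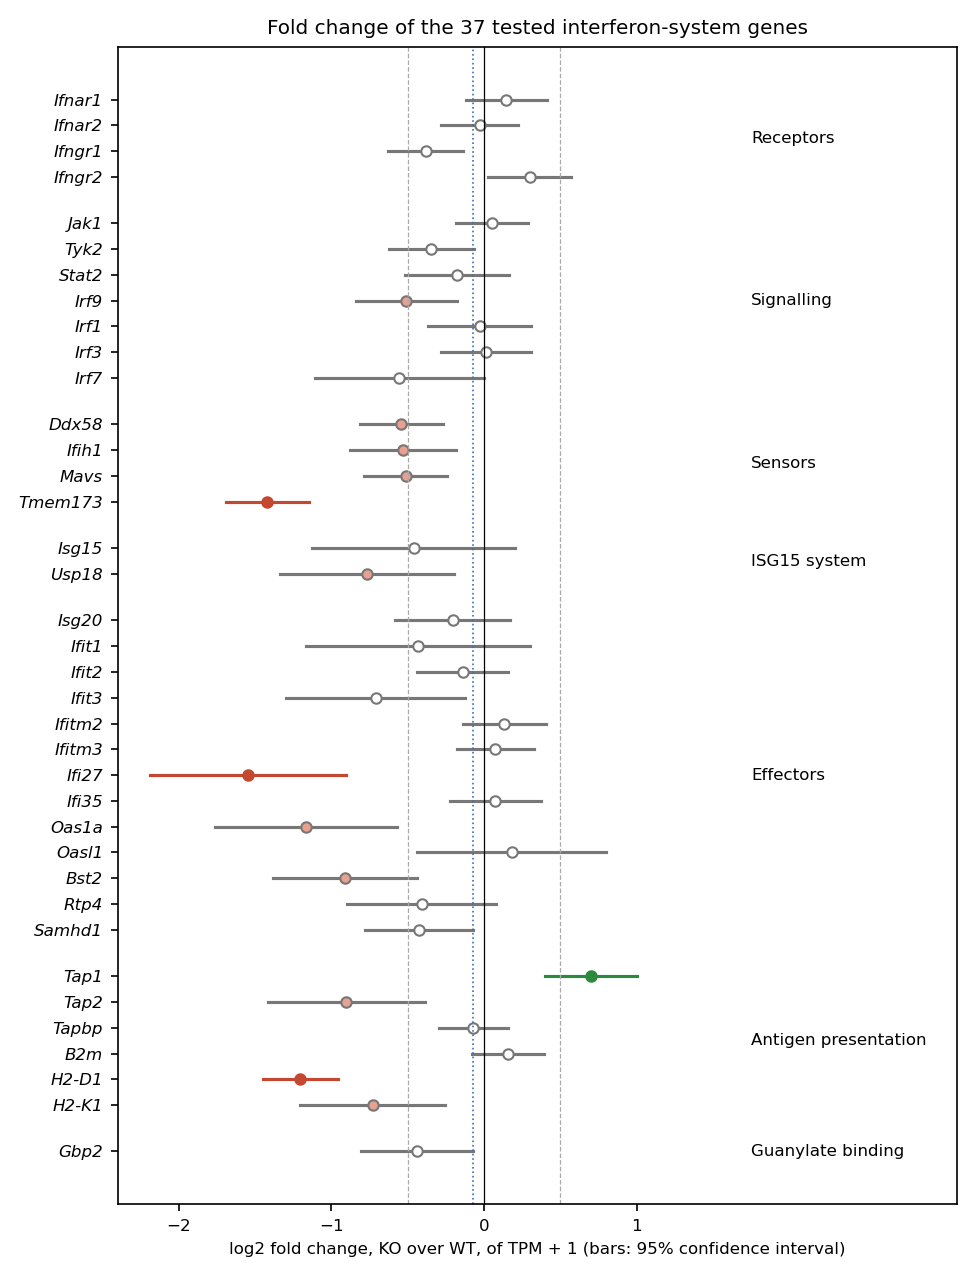
Log2 fold change (KO over WT, of TPM + 1) of the 37 tested genes, grouped by role, with 95% confidence intervals as bars. Filled red points are the 3 genes called lower, the green point is Tap1, called higher, pale points are the other 9 genes lower at an adjusted p under 0.05, dashed lines mark a change of 0.5 in either direction, and the dotted line marks the median of all tested genes at -0.07, to the right of most points.

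For all 4 tested sensors and adaptors, every KO sample was below every WT sample, a separation found in 29.9% of all tested genes. Tmem173, which encodes the adaptor STING that relays the detection of cytosolic DNA (chromosome 18, 35733679 to 35740554, minus strand, mm10), was at 29.6, 38.3 and 37.2 TPM in WT 4, WT 5 and WT 8 and at 12.7, 12.5 and 12.0 TPM in KO 3, KO 7 and KO 10. The groups were far apart, and the KO samples lay within 1 TPM of each other. Tmem173 fell by 1.42 on the log2 scale (SE 0.12, adjusted p = 0.000171), to 35.3% of the WT mean. It was called lower under each of the 15 other settings tried, the looser threshold among them, with log2 fold changes from -1.53 to -1.32.

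The other tested sensors were lower at the looser threshold in limma on log2(TPM + 1). In voom on recovered reads Ddx58, Mavs and Ifih1 were called lower, with adjusted p values of 0.00102, 0.00185 and 0.00318. With median-of-ratios library sizes in voom, none of them was called (log2 fold changes -0.49, -0.44 and -0.68, adjusted p values 0.00259, 0.00472 and 0.00602). They are described because of their values, so they were chosen after these were seen. Ddx58, which encodes the RNA sensor RIG-I, was at 11.2, 13.1 and 12.2 TPM in WT and at 7.16, 8.71 and 8.26 TPM in KO (log2 fold change -0.54, SE 0.12, adjusted p = 0.00943). Ifih1, which encodes the long double-stranded RNA sensor MDA5, was at 2.81, 3.17 and 3.00 TPM in WT and at 1.72, 1.57 and 2.02 TPM in KO (-0.53, SE 0.16, adjusted p = 0.0306). Mavs, which encodes the mitochondrial adaptor of both RNA sensors, was at 28.4, 23.8 and 22.8 TPM in WT and at 17.0, 18.8 and 15.8 TPM in KO (-0.51, SE 0.12, adjusted p = 0.0123). None of these groups overlapped, and all 3 fold changes were just past the limit of 0.5. Ddx58 was inside that limit without WT 5 or KO 3 (-0.49 and -0.47), and Mavs without WT 4 or KO 10 (-0.42 and -0.46). Ifih1 had adjusted p values of 0.0545 to 0.113 without WT 5, WT 8, KO 3, KO 7 or KO 10, and of 0.0757 without a filter. Dhx58, which encodes the related regulator LGP2, was under the filter at 0.68 to 0.98 TPM in WT and 0.88 to 1.09 TPM in KO. The median over the 4 tested sensors and adaptors was -0.54 on the log2 scale.

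**Figure D2:**
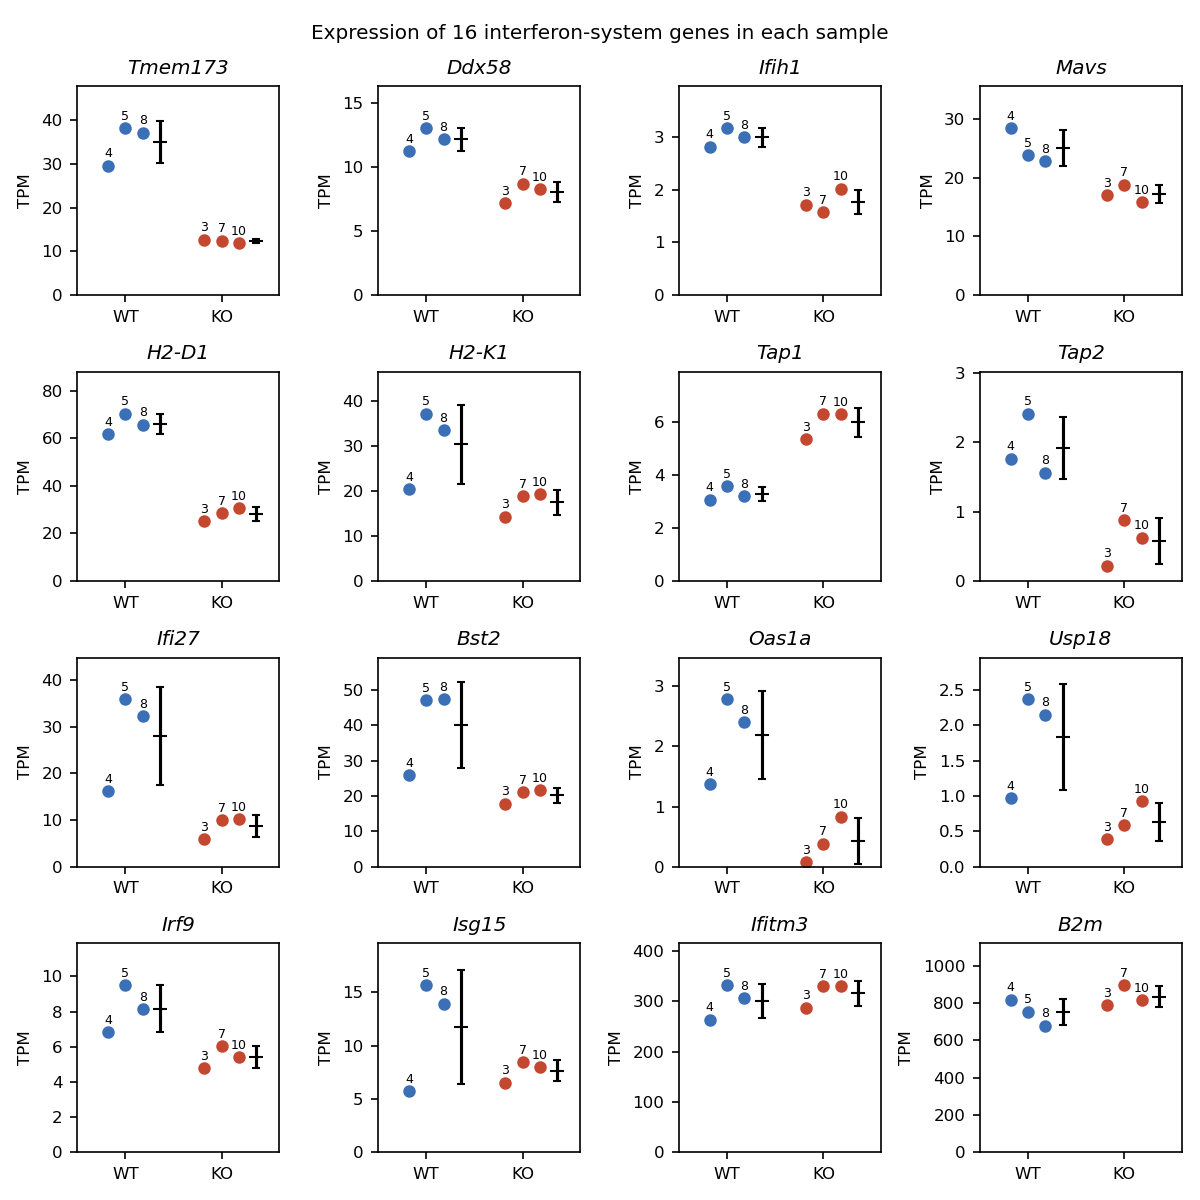
TPM of 16 genes in each of the 6 samples, with WT in blue, KO in red, sample numbers above the points, and the mean ± SD (n = 3) beside each group; every axis is linear and starts at 0. The Tmem173 and H2-D1 groups are widely separated, WT 4 is close to the KO samples for Isg15, Bst2, H2-K1 and Usp18, and Ifitm3 and B2m overlap between groups.

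None of the 4 receptor genes was called in limma or in voom on recovered reads, and in limma 2 had an unadjusted p under 0.05, as did 39.4% of all tested genes. Ifngr2, a subunit of the interferon gamma receptor and the receptor gene with the highest mean level, was at 69.3, 57.4 and 51.8 TPM in WT and at 70.7, 77.9 and 70.5 TPM in KO. The highest WT sample, WT 4, was just below the lowest KO sample, and the log2 fold change of 0.30 (SE 0.12) had an adjusted p of 0.0944. Ifngr1, the ligand-binding subunit of the same receptor, was at 27.5 to 32.7 TPM in WT and 22.3 to 24.4 TPM in KO. The groups did not overlap, and its log2 fold change of -0.38 (SE 0.11, adjusted p = 0.0270) was short of 0.5, as it was in voom on recovered reads, where the adjusted p was 0.00237. The subunits of the type I interferon receptor overlapped between groups. Ifnar1 had a log2 fold change of 0.15 (95% interval -0.12 to 0.41), and Ifnar2 of -0.03 (-0.28 to 0.22), the sign of which turned under median-of-ratios scaling. Under that scaling Ifnar1 was at 0.25 (limma adjusted p = 0.00735) and Ifngr2 at 0.40 (adjusted p = 0.00853), both inside the limit of 0.5.

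Of 7 genes of JAK-STAT and IRF signalling, 0 were called in limma or in voom on recovered reads, and 3 (42.9%) had an unadjusted p under 0.05 in limma, against 39.4% of all tested genes. Jak1, the kinase used by all interferon receptors and the signalling member with the highest level, was at 91.4, 86.7 and 77.0 TPM in WT and at 81.1, 90.7 and 93.1 TPM in KO. The groups overlapped almost entirely, and the log2 fold change was 0.05 (95% interval -0.18 to 0.29). Under median-of-ratios scaling the Jak1 fold change was 0.16 (limma adjusted p = 0.0372). Irf9, the DNA-binding partner of STAT2, was at 6.83, 9.51 and 8.14 TPM in WT and at 4.80, 6.04 and 5.41 TPM in KO. These groups did not overlap, with a log2 fold change of -0.51 (SE 0.15, adjusted p = 0.0295). The limma adjusted p was 0.0824 without a filter and 0.0725 to 0.125 without WT 5, WT 8, KO 3 or KO 10. Irf9 shares 123 bases of exon with the same-strand neighbour Rnf31, so reads from that stretch may have been assigned to either gene. Its partner Stat2 was at -0.18 (adjusted p = 0.423). The kinase gene Tyk2 was at -0.35 (adjusted p = 0.0660) with groups that did not overlap. Of the interferon regulatory factors, Irf1 and Irf3 were at -0.03 and 0.01, and both changed sign under other settings. Irf7, the factor that amplifies interferon production, was at a low level of 0.69 to 1.69 TPM in WT and 0.33 to 0.77 TPM in KO (-0.56, adjusted p = 0.125).

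Neither Isg15 nor its protease gene was called. Isg15, which encodes a ubiquitin-like protein attached to other proteins after interferon exposure and whose promoter window is shown above, was at 5.71, 15.7 and 13.9 TPM in WT and at 6.55, 8.46 and 8.00 TPM in KO. WT 4 was below every KO sample, whereas WT 5 and WT 8 were above all of them. The log2 fold change was -0.46 (SE 0.30, adjusted p = 0.280) with all samples, and -0.87 (adjusted p = 0.00321) without WT 4. It was -0.21 (adjusted p = 0.629) without WT 5 and -0.29 (adjusted p = 0.546) without WT 8. Usp18, which encodes the enzyme that removes ISG15 and restrains the type I receptor, was at 0.97, 2.37 and 2.15 TPM in WT and at 0.39, 0.59 and 0.92 TPM in KO, with WT 4 only slightly above KO 10 (-0.77, SE 0.25, adjusted p = 0.0492). Its limma adjusted p was 0.0539 with a pseudocount of 0.1 and 0.0997 without a filter. The adjusted p was 0.0125 without WT 4, and 0.0522 to 0.159 without any other sample.

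Of the 21 effector genes, 13 were tested, 1 fell (7.69%, against 9.03% of all genes) and 3 were lower at 0.05 (23.1%, against 16.6%). Ifi27, which encodes a small membrane protein induced by type I interferon (chromosome 12, 103434211 to 103440239, plus strand, mm10), was at 16.2, 35.9 and 32.3 TPM in WT and at 5.90, 9.92 and 10.2 TPM in KO. WT 4 was well below the other WT samples and still above all KO samples. Ifi27 fell by 1.55 on the log2 scale (SE 0.29, adjusted p = 0.00389), to 30.9% of the WT mean. This call was lost in 5 of the 9 other settings that used all samples, with adjusted p values up to 0.0266. The 9 include the looser threshold, at which it cannot be lost. It was also lost without WT 5, WT 8, KO 3 or KO 7, with adjusted p values up to 0.0201.

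2 further effectors were lower at the looser threshold and were also chosen after their values were seen. Bst2, which encodes tetherin, a protein that holds budding virions at the cell surface, was at 26.0, 47.1 and 47.4 TPM in WT and at 17.8, 21.1 and 21.7 TPM in KO (log2 fold change -0.91, SE 0.21, adjusted p = 0.0114). Oas1a, which encodes a 2′-5′-oligoadenylate synthetase of the RNase L pathway, was at 1.37, 2.78 and 2.41 TPM in WT and at 0.07, 0.38 and 0.83 TPM in KO (-1.16, SE 0.27, adjusted p = 0.0105). In both genes WT 4 was the WT sample nearest to the KO group, and the groups did not overlap. Without WT 4, Bst2 was called lower (-1.19, adjusted p = 0.000503) and Oas1a was not (-1.36, adjusted p = 0.00651). When genes were not filtered, Bst2 had a limma adjusted p of 0.0501.

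The effector with the highest level did not follow this direction. Ifitm3, which encodes a membrane protein that hinders viral entry, was at 264, 332 and 306 TPM in WT and at 287, 331 and 330 TPM in KO. The KO values lay inside the range of the WT samples, and the log2 fold change was 0.08 (95% interval -0.18 to 0.33). Its relative Ifitm2 was at 0.13, Ifi35 at 0.08 and Oasl1 at 0.18, and the sign of Ifitm3 and Oasl1 turned without WT 4. The tetratricopeptide repeat genes differed among themselves. Ifit3 was at 2.05 to 5.50 TPM in WT and 1.80 to 2.13 TPM in KO (-0.71, adjusted p = 0.0713), and it was called lower without WT 4 (-1.04, adjusted p = 0.00291). Ifit1 was at 1.30 to 3.89 TPM in WT and 0.78 to 2.61 TPM in KO (-0.43, adjusted p = 0.356), and Ifit2, the most abundant of them, at 12.0 to 15.9 TPM in WT and 11.4 to 13.6 TPM in KO (-0.14, adjusted p = 0.461). The exonuclease gene Isg20 and the receptor transporter gene Rtp4 were at -0.21 and -0.41, with adjusted p values of 0.399 and 0.197. Samhd1, which encodes a dNTP-hydrolysing restriction factor, was at 22.5 to 34.4 TPM in WT and 17.7 to 20.4 TPM in KO. Its groups did not overlap (-0.42, adjusted p = 0.0745), and WT 4 was here the highest sample.

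The 8 untested effectors were at low levels. Ifi44 was at 16, 32 and 54 recovered reads in WT and 5, 7 and 6 in KO, or 0.32 to 0.93 and 0.11 to 0.12 TPM. When genes were not filtered its log2 fold change was -0.52 (adjusted p = 0.0595), and none of the 8 was called. Oas2 had 1, 3 and 5 reads in WT and 0 reads in every KO sample, which allows up to 0.0927 TPM at a floor of 3 reads per library. Mx1, a GTPase gene that is defective in many inbred mouse strains, and its relative Mx2 stayed below 0.3 TPM in all samples. Oasl2, Rsad2, Cmpk2 and Xaf1 were at 0.17 to 1.28 TPM in WT and 0.13 to 0.51 TPM in KO, and for each of them WT 4 was the lowest WT sample. Without WT 4, Xaf1 passed the filter and was lower at the looser threshold (-0.77, adjusted p = 0.0491). Reads of the Ifit, Ifitm, Oas, Gbp and class I families can be shared between near-identical copies, so the split within a family is uncertain.

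Of the 6 antigen presentation genes, H2-D1 fell (16.7%, against 9.03% of all genes) and Tap1 rose (16.7%, against 1.64%). At an adjusted p under 0.05, 3 were lower (50%, against 16.6%). H2-D1 and Tap1 both lie in the major histocompatibility region of chromosome 17, as do H2-K1, Tap2 and Tapbp. H2-D1, a class I heavy chain gene (35262730 to 35267499, plus strand, mm10), was at 61.7, 70.3 and 65.6 TPM in WT and at 25.1, 28.5 and 30.6 TPM in KO. The lowest WT sample was more than 30 TPM above the highest KO sample. H2-D1 fell by 1.20 on the log2 scale (SE 0.11, adjusted p = 0.000212), to 42.6% of the WT mean, and was called under each of the 15 other settings tried (-1.27 to -1.10). H2-K1, the other class I heavy chain gene (33996017 to 34000347, minus strand), was at 20.3, 37.1 and 33.4 TPM in WT and at 14.2, 18.9 and 19.3 TPM in KO (-0.73, SE 0.21, adjusted p = 0.0292), with WT 4 close to KO 10. Without WT 4 it was called lower (-0.98, adjusted p = 0.00211). Without WT 5, WT 8, KO 3 or KO 7, H2-K1 was not lower at 0.05 either (adjusted p = 0.0829, 0.0847, 0.104 and 0.0507). Its log2 fold changes were then -0.57, -0.64, -0.60 and -0.79. The 2 genes are compared by sequence because they are paralogs with a like promoter, and reads from their coding sequence may be shared. The H2-D1 window lies inside the gene span given above, because that span is from GENCODE and the promoter start is from RefSeq. The longest stretch they share upstream of the RefSeq start was 47 bases, in capitals here with up to 20 flanking bases on either side.
H2-D1, chr17:35262873-35262959 (plus strand): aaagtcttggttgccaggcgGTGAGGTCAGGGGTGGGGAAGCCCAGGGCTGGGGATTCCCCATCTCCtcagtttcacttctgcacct
H2-K1, chr17:34000422-34000508 (minus strand): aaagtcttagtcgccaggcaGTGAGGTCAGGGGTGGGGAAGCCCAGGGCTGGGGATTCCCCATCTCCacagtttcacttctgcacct
Neither promoter held an exact match to the ISRE core as spelled above. Other spellings of the element were not searched, so its absence from these promoters is not shown.

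Tap1 and Tap2 encode the subunits of the transporter that carries peptides into the endoplasmic reticulum for loading onto class I molecules. Tap1 was called higher, and Tap2 was not called. Tap1 (34187553 to 34197225, plus strand) was at 3.06, 3.58 and 3.20 TPM in WT and at 5.35, 6.31 and 6.28 TPM in KO, with no overlap. It rose by 0.70 on the log2 scale (SE 0.13, adjusted p = 0.00455), to 182% of the WT mean. The call was lost when any 1 sample was left out (adjusted p 0.00703 to 0.0257, log2 fold changes 0.67 to 0.77) and when genes were not filtered (0.0214). Tap1 shares 212 bases of exon with Psmb9 on the opposite strand, which had a mean of 0.10 TPM, and whether the counting used strand is not given in the sources used here. Tap2 (34203527 to 34216321, plus strand) was at 1.76, 2.41 and 1.56 TPM in WT and at 0.22, 0.87 and 0.62 TPM in KO (-0.90, SE 0.23, adjusted p = 0.0168), also with no overlap. The limma adjusted p of Tap2 was 0.0659 without WT 5. B2m, the light chain of class I molecules and the member with the highest level, was at 817, 753 and 679 TPM in WT and at 790, 896 and 816 TPM in KO. Its groups overlapped, and the log2 fold change was 0.16 (95% interval -0.08 to 0.39). Tapbp, which encodes the loading chaperone tapasin, was at 19.1 to 20.8 TPM in WT and 18.5 to 20.1 TPM in KO (-0.07), and its sign turned under median-of-ratios scaling.

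Of the guanylate-binding GTPases, Gbp2 was at 3.09, 2.95 and 3.90 TPM in WT and at 1.91, 2.54 and 2.09 TPM in KO. The groups did not overlap (-0.44, SE 0.16, adjusted p = 0.0759). Gbp3 was under the filter at 0.38 to 1.29 TPM in WT and 0.38 to 0.63 TPM in KO.

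**Figure D3:**
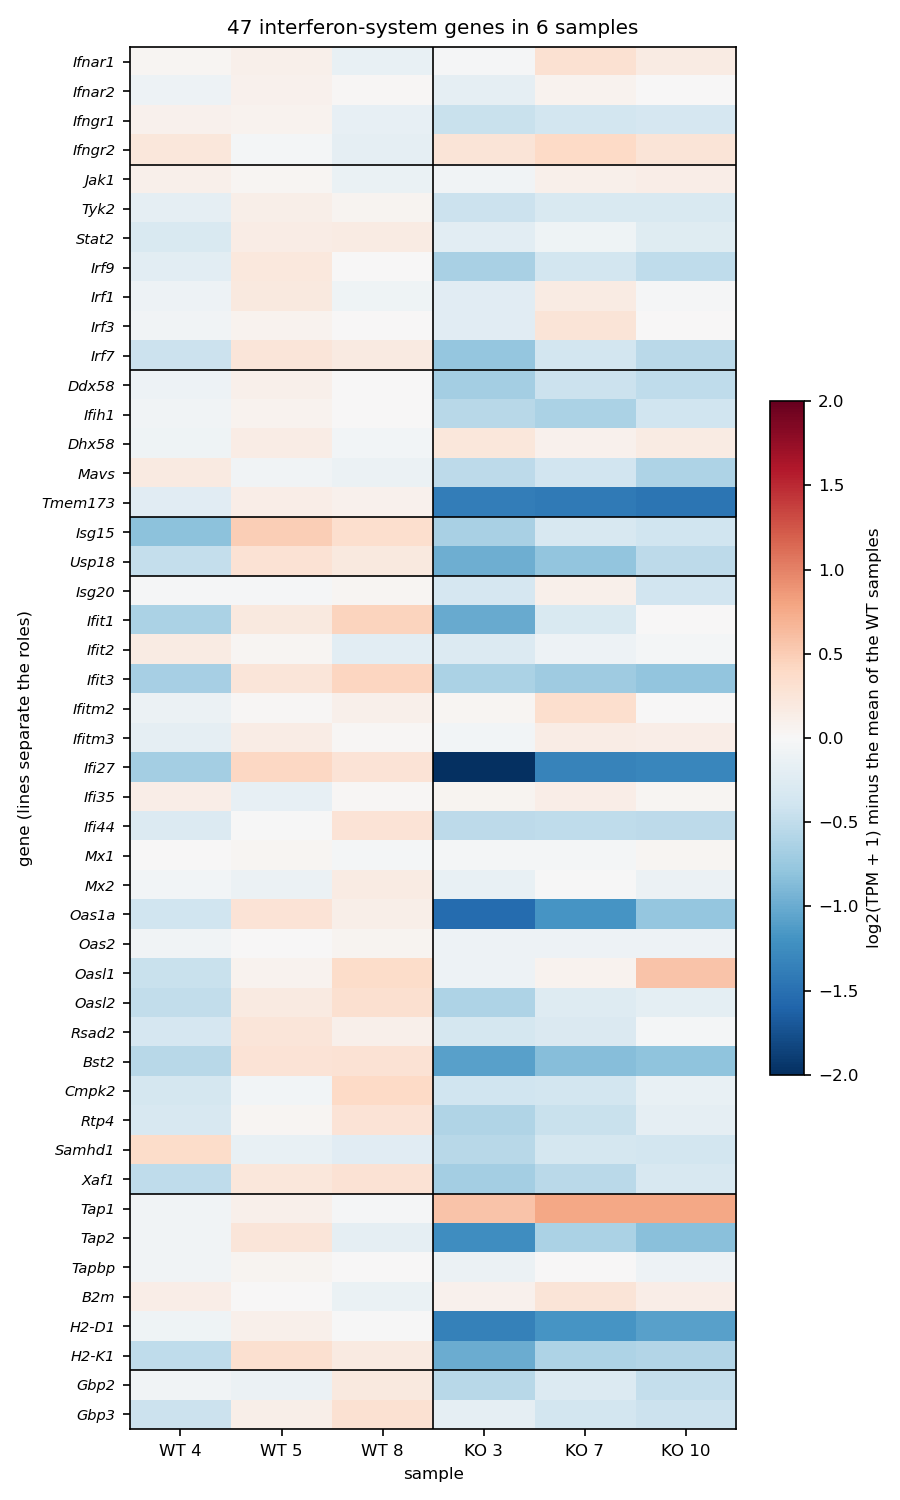
Difference of log2(TPM + 1) from the mean of the WT samples for all 47 genes (rows, with lines between roles) in the 6 samples (columns); blue is lower, red is higher, and the scale is limited to 2 in either direction. Tmem173, H2-D1 and Ifi27 are blue in all KO columns, Tap1 is red in them, and the WT 4 column is blue for Isg15, Ifit1, Ifit3, Ifi27, Bst2 and H2-K1.

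The WT samples were not alike in these genes. WT 4 was the lowest WT sample for 25 of the 37 tested genes (67.6%), against 25.1% of all tested genes. Relative to the mean of WT 5 and WT 8, it stood at 38.6% for Isg15, 37.3% for Ifit1, 40.2% for Ifit3, 42.2% for Irf7, 43.0% for Usp18, 47.4% for Ifi27 and 54.9% for Bst2. The gap was smaller for the genes called lower in every setting, at 78.5% for Tmem173 and 90.8% for H2-D1, and Mavs and Samhd1 were higher in WT 4, at 122% and 148%. The same sample was also the lowest WT sample for 11 of the 12 fibroblast markers. What set WT 4 apart was not tested. Without WT 4, 40 of the 47 genes were tested and 7 were called lower (17.5%, against 5.60% of all genes), namely Tmem173, H2-D1, Ifi27, Bst2, H2-K1, Ifit3 and Isg15, and none was called higher.

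Genes with an ISRE core in the promoter were compared with those without one. Among the 12 tested genes with a core, the median log2 fold change was -0.45 and 4 were lower at an adjusted p under 0.05 (Ddx58, Ifih1, Oas1a and Bst2). Among the 20 tested genes with a promoter sequence and no exact match to the core, the median was -0.10 and 4 were lower (Irf9, Mavs, H2-D1 and H2-K1). Of all tested genes, 16.6% were lower at 0.05, and their median was -0.07. Oas1a had passed the filter through the WT group alone. Tmem173, Ifi27, Usp18 and Tap2, also lower at 0.05, had no matched promoter sequence and are in neither group. The cores of Ddx58 and Ifih1 lay after the annotated start and those of Oas1a and Bst2 before it. For interferon gamma-activated sites the medians were -0.08 for the 10 tested genes with a match and -0.41 for the 22 without. No test was made of these differences, which are descriptions of a few genes.

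Other genes of the same pathways were taken from further lists. Of the interferon ligands, only Ifnb1 was matched in the table, and it had 0 reads in all WT samples and KO 3 and 1 read in each of KO 7 and KO 10. Of 19 tested genes of upstream signalling, 1 fell (5.26%, against 9.03% of all genes) and none rose, and 7 were lower at an adjusted p under 0.05 (36.8%, against 16.6%). Among the 16 of them at 1 TPM or more in both groups, 1 fell (6.25%, against 9.32% of such genes) and 4 were lower at 0.05 (25.0%, against 16.1%). Traf6, a ubiquitin ligase downstream of MAVS and Toll-like receptors, fell by 0.75 on the log2 scale (SE 0.12, adjusted p = 0.00205), from 10.0, 10.4 and 9.07 TPM in WT to 5.01, 5.92 and 5.43 TPM in KO. The DNA sensor Cgas, which makes the messenger that activates STING, was at 6.43, 7.35 and 7.31 TPM in WT and at 2.60, 4.48 and 3.47 TPM in KO (-0.85, SE 0.17, adjusted p = 0.00538), just outside the threshold. Of 13 tested negative regulators, Trim21 and Nlrx1 fell (15.4%, against 9.03%), 3 were lower at 0.05 (23.1%, against 16.6%) and none rose. Both had passed the filter through the WT group alone, and of the 11 at 1 TPM or more in both groups 0 were called in limma (against 9.32% lower among such genes), 1 was lower at 0.05 (9.09%, against 16.1%) and 2 had an unadjusted p under 0.05. Trim21, a cytosolic antibody receptor and ubiquitin ligase, was at 2.16 to 2.33 TPM in WT and 0.33 to 0.58 TPM in KO (-1.13, SE 0.18, adjusted p = 0.00203). Nlrx1, a mitochondrial protein that restrains MAVS signalling, was at 2.34 to 3.33 TPM in WT and 0.81 to 1.03 TPM in KO (-0.95, SE 0.18, adjusted p = 0.00419).

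Of 39 tested other interferon-stimulated genes, 6 fell (15.4%, against 9.03% of all genes), none rose and 12 were lower at 0.05 (30.8%, against 16.6%), with a median of -0.30. Of these, 9 had passed the filter through the WT group alone, Irgm2 among them. Among the 27 at 1 TPM or more in both groups, 5 fell (18.5%, against 9.32% of such genes) and 7 were lower at 0.05 (25.9%, against 16.1%). Slfn9, a member of the Schlafen family, had the largest fold change of the called genes on the log2(TPM + 1) scale, whereas Irgm2 had the largest ratio of mean TPM. Slfn9 was at 12.2, 16.3 and 13.5 TPM in WT and at 2.65, 4.22 and 3.42 TPM in KO (-1.77, SE 0.16, adjusted p = 0.000222). Irgm2, an immunity-related GTPase, was at 2.61 to 3.14 TPM in WT and 0.34 to 0.58 TPM in KO (-1.42, SE 0.18, adjusted p = 0.000688), and the ubiquitin ligase gene Dtx3l at 2.89 to 4.26 TPM in WT and 1.08 to 1.45 TPM in KO (-1.02, SE 0.18, adjusted p = 0.00300). Irgm2 shares exon with Igtp on the same strand, and Dtx3l with Parp9 on the opposite strand. Eif2ak2, which encodes the double-stranded RNA-dependent kinase PKR, was at 13.9 to 17.1 TPM in WT and 7.18 to 9.03 TPM in KO (-0.86, SE 0.13, adjusted p = 0.00157). For these 4 genes every KO sample lay below every WT sample, a separation found in 29.9% of all tested genes. They were named because they were called lower, so this separation is not a further result. Among 11 tested further genes of antigen presentation, 2 fell (18.2%, against 9.03%), 4 were lower at 0.05 (36.4%, against 16.6%) and none rose. Among the 10 at 1 TPM or more in both groups, 2 fell (20%, against 9.32% of such genes) and 3 were lower at 0.05 (30.0%, against 16.1%). H2-M3, a non-classical class I gene, was at 4.77 to 6.01 TPM in WT and 0.93 to 1.56 TPM in KO (-1.53, SE 0.17, adjusted p = 0.000379). Psme1, a proteasome activator subunit, was at 29.1 to 34.2 TPM in WT and 12.4 to 17.4 TPM in KO (-1.02, SE 0.14, adjusted p = 0.000852).

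Macrophages express many interferon-stimulated genes, so their markers were read in the same samples. Of 19 macrophage markers, 14 were tested, 2 rose (Lyz2 and C1qc; 14.3%, against 1.64% of all genes) and 12 were higher at an adjusted p under 0.05 (85.7%, against 4.69%), with a median of 0.92. Among the 12 at 1 TPM or more in both groups, 2 rose (16.7%, against 1.58% of such genes) and 10 were higher at 0.05 (83.3%, against 4.22%). Their summed level was 53.5 to 64.5 TPM in WT and 110 to 217 TPM in KO, highest in KO 10. The lysozyme gene Lyz2 was at 20.6 to 23.8 TPM in WT and 53.1 to 111 TPM in KO (1.59, SE 0.24, adjusted p = 0.00142). C1qc, a complement subunit, was at 1.15 to 1.69 TPM in WT and 3.69 to 7.89 TPM in KO (1.39, SE 0.24, adjusted p = 0.00251). Adgre1, which encodes F4/80, was at 0.34 to 1.14 TPM in WT and 1.61 to 2.42 TPM in KO, the pan-leukocyte gene Ptprc was at 0.09 to 0.26 TPM over all samples, and Aif1 was at 0 in WT 8 and KO 3. Their part in the results for the interferon-system genes was not tested.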

How the data were processed

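The deposited table gave TPM values per gene, made by the authors from RNA sequencing of 3 WT and 3 KO samples. The methods name STAR alignment to mm10 and DESeq2, and the submitters' processing notes list Bowtie 0.12.2. The counting program is not given in the sources used here. Fold change and adjusted p columns of the authors' own comparison were not used. Values multiplied by merged exon length (GENCODE M21) gave whole reads (tolerance 0.05) for 100% of 17815 to 18636 values per sample, so depth could be recovered. Intervals and floors cover counting or sample error only.

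Genes whose group mean reached 1 TPM in WT or KO were tested with limma 3.58.1 (R 4.3.3, moderated with a variance trend, two-sided) on log2(TPM + 1), with Benjamini-Hochberg adjustment over all 14799 genes. The test was checked on simulated data. WT and KO were compared without covariates. P values measure the spread between these samples. The members and gene lists were chosen with earlier results of these data known. Values in every sample are given for called members and for the member with the highest mean in each role. From each further list up to 4 called genes with the largest change are given, and genes named beyond this rule are Cgas, Ifnb1, Adgre1, Ptprc, Aif1 and the members lower only at 0.05. 1 item is not reported here. Lists of lymphoid, endothelial, epithelial, muscle and neural markers had 0 genes called among 0, 3, 2, 1 and 4 tested (against 9.03% lower and 1.64% higher of all genes). An unadjusted p under 0.05 was found for 0, 1, 2, 0 and 1 of them, against 39.4% of all genes. Of the 2 epithelial markers, 1 was higher at an adjusted p under 0.05 (50%, against 4.69%). All KO samples lay above all WT samples for both epithelial markers (100%, against 13.3%). Alternatives were the pseudocount (0.1), the filter (none, 10 TPM, mean of all 6 samples), median-of-ratios scaling, no variance trend, limma-voom on recovered reads, and leaving out each sample. The looser threshold of 0.05 on the main fit was counted as a setting too. The filter on all 6 samples, voom with median-of-ratios library sizes and the count at 0.05 under each setting were chosen after seeing the data.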

Additional observations from a re-analysis of the deposited data

How the results depend on the processing

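No paired analysis was possible because WT and KO share no replicate numbers. Kansl1, Tmem173 and H2-D1 kept their call and direction under all 15 other settings tried. These include the looser threshold of 0.05 on the main fit, at which a call cannot be lost. The settings that changed only the filter or the variance trend kept the same fold changes, so direction could not change in them. The count of members called lower (3) was 7 of 20 tested with a filter at 10 TPM (35.0%, against 14.1% of all genes), 12 of 37 at an adjusted p under 0.05 (32.4%, against 16.6%), 5 of 37 with voom on recovered reads (13.5%, against 14.5%), 2 of 37 with voom and median-of-ratios library sizes (5.41%, against 12.1%), and 2 to 7 when a sample was left out (7 of 40 without WT 4). The count called higher (1) was 0 without a filter, 0 with a filter at 10 TPM, where Tap1 was not tested, and 0 whichever sample was left out. The count lower at 0.05 (12) was 7 of 47 without a filter (14.9%, against 7.96%), 7 of 20 with the filter at 10 TPM (35.0%, against 14.9%), 6 of 37 with median-of-ratios scaling (16.2%, against 13.7%), and 6 to 15 when a sample was left out. Over all genes, the 242 higher calls became 55 without a filter, 473 with median-of-ratios scaling, 694 at 0.05, 433 with voom, 642 with voom and median-of-ratios library sizes, and 84 to 252 when a sample was left out. The 1337 lower calls became 286 without a filter, 2453 at 0.05, 2149 with voom and 617 to 938 when a sample was left out, and were 1440 and 1796 under the 2 median-of-ratios settings. The cause of these shifts was not tested, apart from the fewer samples and the different number of genes tested that some settings bring. The members that changed sign under at least 1 setting were Ifnar2, Irf1, Tapbp, Irf3, Ifitm3, Oasl1, Ifi35 and Jak1. The 10 members under the filter were tested only in settings with another filter or fewer samples, and none of them was called without a filter.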
